A study of Oryza sativa with 2 samples.

Results

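Sucrose synthase and sucrose phosphate synthase are among the enzymes of sucrose metabolism in a plant cell. Genes of both were followed here in seedlings of 93-11, an indica cultivar of rice (Oryza sativa). The members were taken by locus ID, with no limit set on their level, though earlier results of these data were known at the choice. They were 6 sucrose synthase loci, SUS1 to SUS6, and 4 sucrose phosphate synthase (SPS) loci on chromosomes 1, 6, 8 and 11. Of these 10 IDs, 9 had a row in each of the deposited tables of 37896 rows, 5 of them SUS and 4 of them SPS. SUS5 (LOC_Os04g24430) is not analysed here. The samples were 2 libraries of polyadenylated RNA from wild-type whole plants, 3 weeks old and without any treatment. The plants were grown hydroponically with 10 h of light, at 800 umol per square metre and second, and 14 h of darkness. The libraries form 1 group, replicate 1 and replicate 2. Nothing in the labels says that they came from separate plants, so the spread between them may be technical, and with 1 group and 2 libraries no test between conditions can be made.

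Sucrose is the main form in which rice leaves export carbon. SPS joins UDP-glucose and fructose 6-phosphate to sucrose 6-phosphate, from which a phosphatase then releases sucrose, and it is known for its role in photosynthesising leaves. Sucrose synthase, in spite of its name, is known chiefly for cleaving sucrose with UDP into UDP-glucose and fructose in growing and storing tissues, where the UDP-glucose feeds cellulose and starch. The reaction of sucrose synthase is readily reversible.

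Levels are given in FPKM, the fragments per kilobase of transcript and per mapped total, which is a scale per length, so that levels of different genes can be set side by side. At 1 FPKM or more, the level called detected here, 7 of the 9 members were found in both libraries, against 53.1% of all rows. These were SUS1, SUS2, SUS4 and the 4 SPS loci. SUS6 passed this level in replicate 2 and fell short of it by little in replicate 1, and SUS3 was listed at 0 in both. The median member stood at 17.8 FPKM by the mean of the libraries, and the median of all rows at 2.05 FPKM. The members together held 0.0806% of the summed FPKM of replicate 1 and 0.118% of that of replicate 2.

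**Figure D1:**
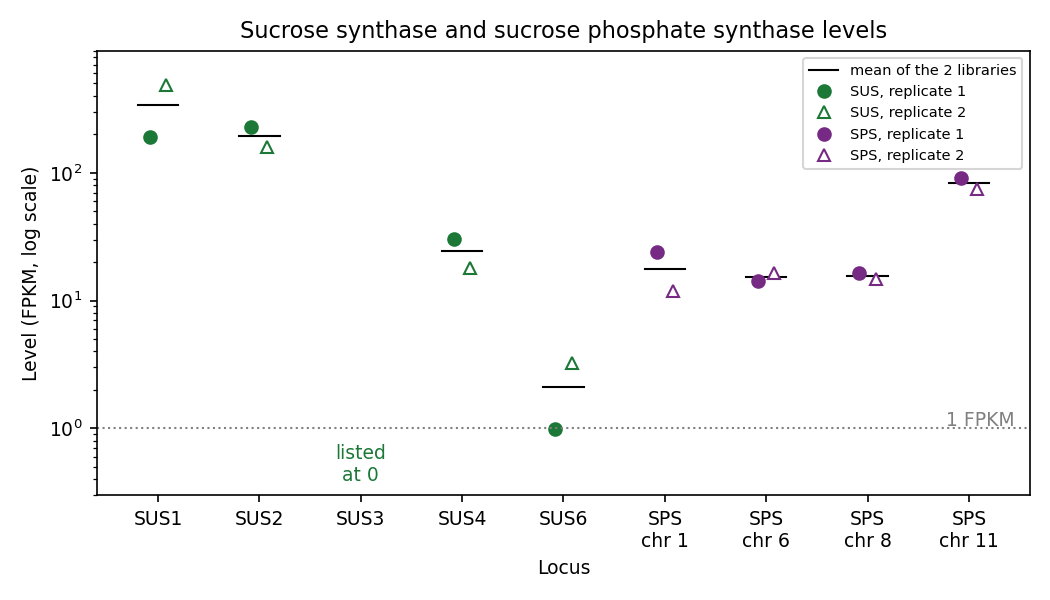
FPKM of each locus (log scale) in replicate 1 (filled circles) and replicate 2 (open triangles), with SUS loci in green and SPS loci in purple, and a bar at the mean of the 2 libraries. SUS1, SUS2 and the SPS locus of chromosome 11 lie highest, SUS6 lies near the dotted line at 1 FPKM, and SUS3 was listed at 0 in both libraries.

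Among the listed sucrose synthases with a row, SUS1 and SUS2 carried nearly all of the summed level. SUS1 (LOC_Os03g28330, chromosome 3), a form known in rice from elongating tissues, stood at 190.9 FPKM in replicate 1 and 489.6 in replicate 2, a mean of 340.3 ± 211.2 FPKM (SD, n = 2). Its SD was 62.1% of its mean. It was the highest member by the mean, and 205 of all rows lay above it. SUS2 (LOC_Os06g09450, chromosome 6), known in rice as a broadly expressed form, stood at 229.8 FPKM in replicate 1 and 159.3 in replicate 2, a mean of 194.6 ± 49.8 FPKM. The 2 loci changed places between the libraries: SUS1 stood at 0.831 times SUS2 in replicate 1 and at 3.07 times SUS2 in replicate 2. Their order is therefore not separated beyond the spread of the replicates, and the ratio within a library does not depend on how the libraries are scaled.

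SUS4 and SUS3 are known in rice mainly from the developing grain, and the seedlings gave different values for them. SUS4 (LOC_Os03g22120, chromosome 3) stood at 30.6 FPKM in replicate 1 and 18.1 in replicate 2, a mean of 24.3 ± 8.84 FPKM (SD, n = 2), at the 87.1 percentile of all rows. Within the libraries, SUS2 stood at 7.52 and 8.82 times SUS4, whereas SUS1 stood at 6.24 times SUS4 in replicate 1 and at 27.1 times in replicate 2. SUS3 (LOC_Os07g42490, chromosome 7) was listed at 0 in replicate 1 and at 0 in replicate 2, as were 26.2% of all rows. Without fragment counts a listed 0 cannot be told from a low level or a failed estimate, and the ID has the form of a japonica annotation, so a locus divergent in 93-11 cannot be told apart either. No source used here states how fragments matching several loci of a family were assigned, and the division of reads among similar SUS loci is uncertain to that extent.

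SUS6 (LOC_Os02g58480, chromosome 2) was the lowest member above 0. It stood at 0.996 FPKM in replicate 1 and 3.23 in replicate 2, a mean of 2.12 ± 1.58 FPKM (SD, n = 2), close to the middle of all rows at the 50.3 percentile. SUS1 lay 191.7 times above it in replicate 1 and 151.4 times above it in replicate 2.

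The listed SPS loci were led by a single locus in both libraries. The locus of chromosome 11 (LOC_Os11g12810) stood at 90.7 FPKM in replicate 1 and 74.9 in replicate 2, a mean of 82.8 ± 11.2 FPKM (SD, n = 2), at the 96.7 percentile of all rows. It stood 5.51 times above the locus of chromosome 8 in replicate 1 and 5.07 times above it in replicate 2. Its lead over the other SPS loci held in each library, by 3.80-fold or more in replicate 1 and by 4.52-fold or more in replicate 2.

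The 3 other SPS loci lay close together. The locus of chromosome 1 (LOC_Os01g69030) stood at 23.9 FPKM in replicate 1 and 11.8 in replicate 2, a mean of 17.8 ± 8.54 FPKM (SD, n = 2). The locus of chromosome 8 (LOC_Os08g20660) stood at 16.5 FPKM in replicate 1 and 14.8 in replicate 2, a mean of 15.6 ± 1.20 FPKM. The locus of chromosome 6 (LOC_Os06g43630) stood at 14.2 FPKM in replicate 1 and 16.6 in replicate 2, a mean of 15.4 ± 1.69 FPKM. In replicate 1 the chromosome 1 locus was the highest of these 3 and in replicate 2 the lowest, and the other two also changed order, so none of the 3 was separated from the others beyond the replicate spread. As deposited, the loci of chromosomes 8 and 6 were the steadiest members above 0, with SDs of 7.65% and 11.0% of their means. After both libraries were scaled to the same total, the locus of chromosome 11 was steadier than that of chromosome 6. The log2 ratio of replicate 1 over replicate 2, on FPKM + 1, was then 0.12 for chromosome 11 and -0.35 for chromosome 6.

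**Figure D2:**
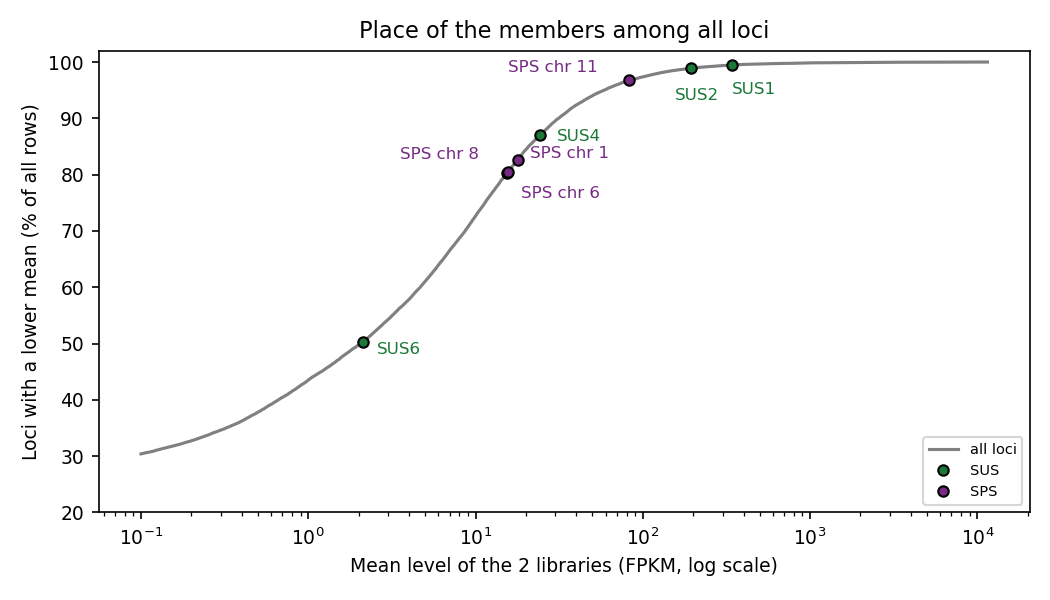
Percentage of all rows with a lower mean than a given level (grey line) against the mean FPKM of the 2 libraries (log scale, drawn from 0.1 FPKM), with SUS loci in green and SPS loci in purple. SUS1, SUS2 and the SPS locus of chromosome 11 lie at the 99.5, 98.9 and 96.7 percentiles, the other SPS loci and SUS4 between 80.3 and 87.1, and SUS6 at 50.3.

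Ordered by the mean of the libraries, SUS1 came first, followed by SUS2, the SPS locus of chromosome 11, SUS4, the SPS loci of chromosomes 1, 8 and 6, and SUS6. SUS3, listed at 0, was given no place in this order. Of the 7 steps between neighbours among the 8 members above 0, 3 were separated, in that the lower library of the higher locus lay above the higher library of the lower locus. These were the steps from SUS2 to the SPS locus of chromosome 11, from there to SUS4, and from the SPS locus of chromosome 6 to SUS6. The 4 steps not separated were those from SUS1 to SUS2, from SUS4 to the SPS locus of chromosome 1, from there to chromosome 8, and from chromosome 8 to chromosome 6. Over the 28 pairs of members above 0, 24 had the same order in both libraries and 23 were separated by this rule. The 4 pairs that changed order were SUS1 with SUS2 and the 3 pairs formed by the SPS loci of chromosomes 1, 6 and 8.

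The summed SUS level was above the summed SPS level in both libraries, by a factor that moved with SUS1. The 5 SUS loci summed to 452.3 FPKM in replicate 1, where the 4 SPS loci summed to 145.3. In replicate 2 the sums were 670.2 FPKM for SUS and 118.1 for SPS. The SUS sum was 3.11 times the SPS sum in replicate 1 and 5.68 times in replicate 2, a mean of 4.39 ± 1.81 (SD, n = 2). Of the summed level of the listed loci with a row, SUS loci held 80.4% ± 6.60. SUS5 and any locus outside the list are not in these sums, so they are not totals of either family. Without SUS1, a setting chosen after the values were seen, the ratio was 1.80 in replicate 1 and 1.53 in replicate 2. The direction was thus the same without SUS1, and the libraries then lay closer together.

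**Figure D3:**
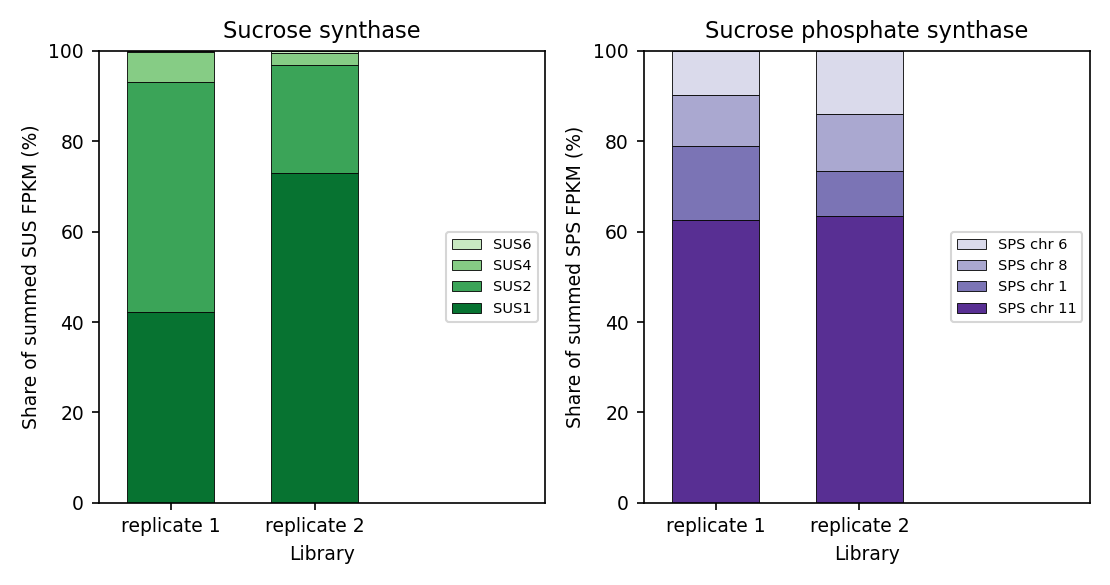
Share of each locus in the summed FPKM of the listed loci of its family, with 1 bar per library. The left panel (greens) holds the SUS loci and the right panel (purples) the SPS loci. SUS1 takes 42.2% of the SUS sum in replicate 1 and 73.0% in replicate 2, whereas the SPS locus of chromosome 11 takes 62.5% and 63.4% of the SPS sum.

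The make-up of the listed SUS loci and that of the listed SPS loci differed in how steady they were. SUS1 held 42.2% of the summed SUS level in replicate 1 and 73.0% in replicate 2, SUS2 held 50.8% and 23.8%, and SUS4 held 6.76% and 2.70%. SUS6 held 0.220% and 0.483%. Among the SPS loci, that of chromosome 11 held 62.5% of the summed SPS level in replicate 1 and 63.4% in replicate 2. The chromosome 1 locus held 16.4% and 9.98%, the chromosome 8 locus 11.3% and 12.5%, and the chromosome 6 locus 9.77% and 14.05%.

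Between the replicates, SUS1 and SUS6 were the members past 2-fold on the scale used here, and of these only SUS1 lay outside the range of its level. Past 2-fold on log2(FPKM + 1), after both libraries were scaled to the same total, lay 2 of the 9 members, against 5.61% of all rows. Both were higher in replicate 2, the direction of 4.51% of all rows. With 1 library on each side these calls have no replicate check. For SUS1 the log2 ratio of replicate 1 over replicate 2 was -1.50, and its FPKM as deposited in replicate 2 was 2.56 times that in replicate 1. Among the 939 rows with a mean from 100 to 1000 FPKM, 5.11% lay past 2-fold in this direction, and the 5th and 95th percentiles of the log2 ratio were -1.01 and 0.66. SUS1 therefore lay outside the range that held 90% of rows of its level. SUS6 had a log2 ratio of -1.18, but among the 11045 rows with a mean from 1 to 10 FPKM the 5th percentile was -1.43 and 9.21% lay past 2-fold in this direction, so SUS6 lay within the range of rows of its level. The added 1 makes the ratio of so low a locus smaller: as deposited, SUS6 in replicate 2 was 3.25 times its value in replicate 1, a larger fold than that of SUS1.

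**Figure D4:**
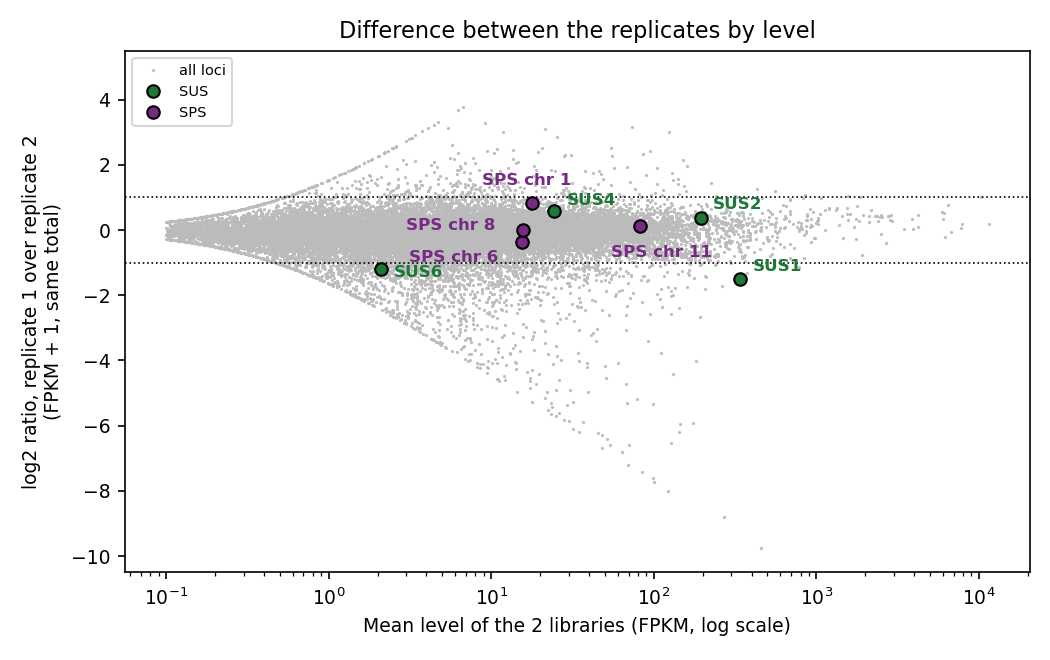
Log2 ratio of replicate 1 over replicate 2 on FPKM + 1, after scaling to the same total, against the mean FPKM of the 2 libraries (log scale), for all rows with a mean of 0.1 FPKM or more (grey) and for the SUS (green) and SPS (purple) loci. The dotted lines mark 2-fold, and SUS1 at -1.50 and SUS6 at -1.18 are the members beyond them.

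The remaining members above 0 kept within 2-fold on this scale. The SPS locus of chromosome 1 had the largest ratio in favour of replicate 1, a log2 ratio of 0.82, above the 95th percentile of 0.55 for the 9368 rows with a mean from 10 to 100 FPKM. As deposited, without scaling or an added 1, its FPKM in replicate 1 was 2.02 times that in replicate 2, just past 2-fold. SUS4 followed with a log2 ratio of 0.58, also just above that percentile. SUS2 stood at 0.38, within the range of its level. The SPS loci of chromosomes 11, 8 and 6 had log2 ratios of 0.12, 0.01 and -0.35, within the range as well. As deposited, 5 members were higher in replicate 1 and 3 in replicate 2, and of all rows 14826 were higher in replicate 1 and 13144 in replicate 2. Among loci at 1 FPKM or more in both libraries, the median log2 ratio after scaling was 0.12 over the 7 members and -0.07 over all 20128 such rows.

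Rows next to the members in locus number covered a wide range of levels. Of the 18 flanking rows, 9 were at 1 FPKM or more in both libraries, against 53.1% of all rows. Listed at 0 in both were 6, against 26.2% of all rows. The means of the flanking rows ran from 0 to 53.5 FPKM with a median of 1.97 FPKM. The row before SUS1 gave 4.15 FPKM in replicate 1 against 3.38 in replicate 2, and thus was not higher in replicate 2 as SUS1 was. The row after SUS1 was listed at 0 in both libraries and could show no difference. The row before SUS6 stood at 0.769 FPKM in replicate 1 and 2.38 in replicate 2, a log2 ratio of -1.02, and thus differed between the libraries in the same direction as SUS6. The row after SUS6 had a log2 ratio of -0.64, in the same direction. Both rows had a mean from 1 to 10 FPKM, where the median of all rows was -0.12 and the 5th percentile -1.43. Each therefore lay within the range of rows of its level. Past 2-fold were 2 of the 18 flanking rows, against 5.61% of all rows. One was the row before SUS6, and of rows with a mean from 1 to 10 FPKM, 9.21% lay past 2-fold in its direction. The other was the row before the SPS locus of chromosome 6. It stood at 35.0 FPKM in replicate 1 and 72.0 in replicate 2, a log2 ratio of -1.17. This was below the 5th percentile of -1.05 for rows with a mean from 10 to 100 FPKM. Whether fragments were shared between these rows was not tested.

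The rows most like SUS1 in level over the 2 libraries, by distance on log2(FPKM + 1), were LOC_Os08g02120 on chromosome 8, at a distance of 0.29, and LOC_Os07g10440 on chromosome 7, at 0.37. The first stood at 232.1 FPKM in replicate 1 and 520.8 in replicate 2. With 2 libraries such likeness rests on 2 values, and the sources used here pair neither ID with a name.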

How the data were processed

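Poly(A) RNA of whole 93-11 plants was sequenced in 2 libraries. The authors deposited 1 table of FPKM values per library, per the file headers, and TopHat2 and Cufflinks are named in the submitters' processing notes, without versions. Which genome build, annotation, counting settings and filters were used is not given in these sources. No fragment counts come with the values, so the depth is unknown and no counting interval is given. The values summed to 741624 FPKM in replicate 1 and 668305 FPKM in replicate 2, and 27970 rows differed between the libraries.

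Members were found by ID. The names SUS1 to SUS6 each occur once, on the chromosome of the ID, in the supplied RefSeq gene table (assembly ASM3414082v1, 39387 genes), which holds none of the member IDs. Of the symbols SPS1, SPS6, SPS8 and SPS11, 2 have an entry on the chromosome of the ID (6 and 8), the entry SPS1 lies on another chromosome and SPS11 has none, so the SPS loci are named by chromosome and their assignment was not checked by symbol for chromosomes 1 and 11. Other sucrose genes were not analysed, because the RefSeq gene table pairs none of their names with a locus ID of the kind used here. The members and settings were chosen with earlier results of these data known. All 9 loci with a row are named. Outside them, the rule named the 2 rows nearest to the highest member, and flanking rows mainly as ranges. Values are FPKM as deposited, with the mean ± SD over both libraries. Ratios between replicates use log2(FPKM + 1), which understates folds of low loci, after scaling to the same total. That scaling moved every log2 ratio of FPKM by -0.15. The calculation was tested on simulated data with 4-fold changes in rows at a mean of 10 FPKM or more. It was not tested at the level of SUS6 or for smaller folds. Python 3.11.15, numpy 2.4.6, pandas 2.3.3 and matplotlib 3.10.9 were used.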

Additional observations from a re-analysis of the deposited data

How the results depend on the processing

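No paired analysis was possible because both libraries belong to the same group. Detected members numbered 7 to 8 under each threshold, scaling and single library tried. For all rows, the share was computed only at 1 FPKM in both libraries and at 2-fold after scaling to the same total. Counts of members at the other settings therefore have no background share. The members past 2-fold between replicates numbered 2 under each scaling and pseudocount tried, 3 at a 1.5-fold limit, 0 at a 4-fold limit, and 1 when members under a mean of 10 FPKM were left out, as SUS6 then is by construction. In 1 library alone, 33 to 35 of the 36 pairs kept the order of the means (with SUS3 at its listed 0, which enters 8 of them). The means contain that same library, so part of this agreement is built in. Between the libraries, 32 of the 36 pairs had the same order, or 24 of 28 without SUS3. By single library, the SUS share of the summed listed loci was 75.7% to 85.0% and the SUS over SPS ratio 3.11 to 5.68. The SUS1 share of the SUS sum was 42.2% to 73.0%, and the share of the chromosome 11 locus in the SPS sum 62.5% to 63.4%. In settings chosen after seeing the data, leaving out SUS1 gave a SUS share of 62.4% and a ratio of 1.66, and leaving out the chromosome 11 locus a ratio of 11.9. The levels themselves depended on the scaling. Scaling each library to a sum of 1000000 multiplied all loci of a library by the same factor, so every member above 0 rose. Of these 8 members, 5 moved by an SD or more, and 3 by less. That split follows the SD of each member and does not show which levels depend more on scaling. SUS2 went from a mean of 194.6 to 274.1, more than its SD of 49.8. SUS1 went from 340.3 to 495.0, less than its SD of 211.2. For SUS3 and SUS6 the precision is limited by the unknown depth.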
